A study of Mus musculus with 20 samples.

Results

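Metallothioneins and zinc transporters were followed through the livers of diabetic mice that received a bamboo leaf extract, an antidiabetic drug or saline. The 6 genes were Mt1 and Mt2, the importer genes Slc39a14 and Slc39a4, and the exporter genes Slc30a1 and Slc30a10. They were taken by their symbols from a table of read counts for 46078 genes, and all 6 were among the 15744 genes that passed the filter on low counts. The liver RNA of 16 mice was sequenced, with 4 libraries in each of 4 groups. The DLE group held db/db mice given an extract of Dendrocalamus latiflorus leaves, a bamboo, at 200 mg/kg. The PGZ group held db/db mice given pioglitazone at 20 mg/kg, a PPAR-gamma agonist used against diabetes. Saline was given to the db/db mice of the model group and to the normal group, which was of wild-type C57BL/6J mice. Treatment lasted 12 weeks. The db/db mice carry, in every cell, a mutation that disables signalling of the leptin receptor, and become obese and diabetic. The sources used here gave neither their strain background and age nor the sex of any mouse, so genotype and background cannot be told apart. A further group, given white tea extract, was not analysed here.

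Metallothioneins are small cysteine-rich proteins that bind zinc and copper in the cytosol. Their genes are switched on by the zinc-sensing transcription factor MTF1, which binds metal response elements, and in liver also by glucocorticoids and by the cytokine signals of the acute phase. Zinc enters the cytosol through the ZIP proteins of the Slc39a family and leaves it, for the outside or for organelles, through the ZnT proteins of the Slc30a family. Slc39a14 encodes ZIP14, which imports zinc, manganese and iron into hepatocytes and is known as an acute-phase gene. Slc39a4 encodes ZIP4, best known for zinc uptake in the intestine. Slc30a1 encodes ZnT1, the zinc exporter of the plasma membrane and itself an MTF1 target. Slc30a10 encodes ZnT10, which exports manganese.

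Mt1 and Mt2 are neighbours on mouse chromosome 8 of GRCm38, on the plus strand, with 5.51 kb between them. Mt1 lies at chr8:94179082-94180327 and Mt2 at chr8:94172664-94173568. Slc39a14 lies at chr14:70303469-70351425 and Slc39a4 at chr15:76612383-76617384, both on the minus strand. Slc30a1 at chr1:191906767-191913247 and Slc30a10 at chr1:185454848-185468762 both lie on the plus strand of chromosome 1. The start of 4 of the 6 genes was covered by RefSeq windows of 300 bases on GRCm38.p6, from 250 bases before to 50 after the start. These are shown because metal response elements are the sites through which zinc is known to act on metallothionein genes. The search used TGCACNC or TGCGCNC on either strand, and each match is in capitals. Where the 250 bases before the start reach into an annotated transcript, only stretches of 30 bases around the matches are given. The start meant here is that of RefSeq. For Mt1, Mt2 and Slc30a1 it differs from the first base of the gene coordinates above, which are from GENCODE.
Mt1, chr8:94179054-94179083, plus strand: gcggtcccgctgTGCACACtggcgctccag
Mt1, chr8:94179088-94179117, plus strand: ctcTGCACTCcgcccgaaaagTGCGCTCgg
Mt2, chr8:94172368-94172617, plus strand: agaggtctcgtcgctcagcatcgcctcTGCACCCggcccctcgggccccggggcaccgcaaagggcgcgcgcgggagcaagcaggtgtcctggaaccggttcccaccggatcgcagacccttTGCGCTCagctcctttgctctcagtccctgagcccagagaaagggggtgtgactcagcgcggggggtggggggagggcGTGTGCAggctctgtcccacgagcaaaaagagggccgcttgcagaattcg
Slc30a1, chr1:191906726-191906755, plus strand: aacgggggttccGAGTGCAaagcaaagttt
Slc30a1, chr1:191906799-191906828, plus strand: cgcctccgggccGAGCGCAgtcgccgcgga
Slc30a10, chr1:185454598-185454847, plus strand: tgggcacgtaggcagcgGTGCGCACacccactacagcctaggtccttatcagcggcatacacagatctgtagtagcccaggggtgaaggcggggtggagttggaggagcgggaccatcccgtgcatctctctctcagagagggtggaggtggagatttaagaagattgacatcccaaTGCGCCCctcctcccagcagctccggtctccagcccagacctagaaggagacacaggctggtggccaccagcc

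Of the Mt2 and Slc30a10 windows only the 250 bases before the start are printed. The whole Mt2 window held 4 matches, of which the 1 at base 5 after the RefSeq start is not shown. The Mt1 window held 3, the Slc30a10 window 3 and the Slc30a1 window 2. In Slc30a10, 2 of its 3 matches overlap on opposite strands. Among all 32851 RefSeq windows of this length, 25.7% held at least 1 match, 7.11% at least 2 and 1.97% at least 3. An antioxidant response element, searched as TGACNNNGC on either strand, matched once in Mt2 and once in Slc30a1, and in 12.4% of all windows. A STAT element, searched as TTCNNNGAA, had no match in the 4 windows and was found in 8.3% of all windows. A match describes the letters only and does not show that a factor binds there.

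Each library held between 16922833 and 25119799 counted reads. Libraries of 1 group correlated at 0.835 to 0.986 (Pearson, log2 CPM), and the lowest value came from the model group. The hepatocyte markers (5 genes) summed to 28620 to 100100 CPM, or scaled counts per 1e6 reads, over the 16 libraries. Cages, days and batches are not in the labels, so a group difference cannot be told apart from a difference in these. The p-values set a group difference against the spread of libraries within groups. In model_327 and model_387, 18 acute-phase protein genes together held 255030 and 119240 CPM, against 12985 to 17876 CPM in normal livers. For the genes named as called in model versus normal, the values without them are given where the call was lost.

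The 2 metallothioneins were by far the most abundant of the 28 genes of the metallothionein, ZIP and ZnT families. Per kilobase of exon, Mt2 averaged 1465 and Mt1 1279 CPM over the 16 libraries. Without regard to length, Mt1 averaged 1593 CPM and Mt2 862 CPM. The order of the 2 thus depends on the length used, which joined all annotated exons to 1246 bases for Mt1 and 588 for Mt2. Single Mt1 transcripts are annotated at 549, 633 and 1085 bases, and the other genes were scaled in the same way. Among the other members, Slc39a14 followed at 29.1 CPM per kilobase, then Slc30a10 at 9.67, Slc39a4 at 5.53 and Slc30a1 at 3.89. Of genes outside the 6, Slc39a1 (24.8), Slc30a5 (5.79) and Slc30a9 (5.66) lay above Slc39a4. The metallothioneins were also the most variable members. The highest library held 58.2 times as much Mt2 and 41.9 times as much Mt1 as the lowest, against 3.24 to 3.92 times for the 4 transporters.

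**Figure D1:**
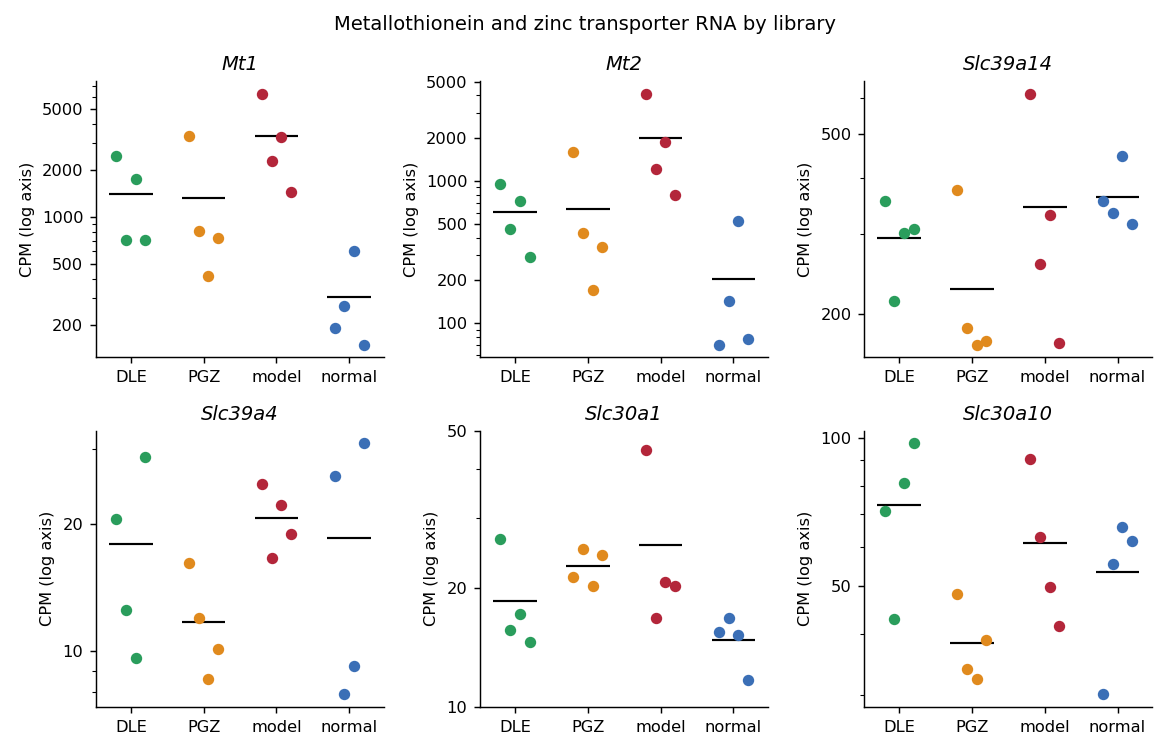
Level of each of the 6 genes in every library, in CPM on a log axis, with groups in the order DLE, PGZ, model and normal. Each point is 1 library and each bar the group mean; in the model group all 4 points of Mt1 and Mt2 lie above all 4 normal points, while the points of Slc39a14, Slc39a4 and Slc30a10 overlap.

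Mt1 and Mt2 rose in model livers. Mt1 held 6281, 3312, 2289.5 and 1452 CPM in the model libraries model_327, model_387, model_329 and model_407, against 603, 266, 193 and 149.7 CPM in the normal libraries normal_376, normal_349, normal_346 and normal_409. Mt2 held 4113, 1894, 1211 and 791 CPM in the same model libraries and 523, 144, 70.7 and 77.9 CPM in the same normal libraries. For both genes the lowest model liver stood above the highest normal liver. Mt1 was 11.01-fold higher (log2 3.46, SE 0.72, 95% interval 3.84 to 31.5-fold, adjusted p = 0.00965, edgeR quasi-likelihood test, Benjamini-Hochberg adjustment over all tested genes, n = 4 each). Mt2 was 9.82-fold higher (log2 3.30, SE 0.81, 95% interval 3.01 to 32.1-fold, adjusted p = 0.0214, same test). The pair took 0.494% ± 0.268 of all reads in model livers and 0.0494% ± 0.0453 in normal livers (SD, n = 4 each). Of the 6 genes, 2 were called in this comparison, where a call is an adjusted p under 0.05, and 9.08% of all tested genes were called. The groups did not overlap for the same 2 genes, which was so for 13.7% of all tested genes. In RNA from whole liver, more cells of a kind and more RNA per cell cannot be told apart.

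Mt1 was called with any 1 library left out (log2 2.95 to 4.04, adjusted p 0.00646 to 0.0406). Mt2 lost its call without model_327 (log2 2.67, adjusted p = 0.0558) and without the normal libraries normal_346, normal_349 or normal_409 (adjusted p 0.0618 to 0.0694). Without model_327 and model_387 the difference was 2.63 for Mt1 (adjusted p = 0.0886) and 2.29 for Mt2 (adjusted p = 0.218), and neither was called.

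The importers and exporters did not pass the test in model livers. Slc39a14 held 614, 331, 259 and 173 CPM in the model libraries model_327, model_387, model_329 and model_407, against 448, 356, 334 and 316 CPM in normal livers. Its fitted difference was -0.08 (SE 0.35, 95% interval -0.81 to 0.65, adjusted p = 0.903), and the model libraries lay on both sides of the normal range. With limma voom, which weights libraries by their spread, Slc39a14 was called lower in model livers (log2 -0.83, adjusted p = 0.00652), in a fit that called 27.5% of all tested genes. Slc39a4 averaged 20.6 ± 3.62 CPM in model livers and 18.5 ± 11.7 CPM in normal livers (SD, n = 4 each), where the normal libraries themselves spread from 7.91 to 31.0 CPM. The interval of the Slc39a4 difference ran from -0.71 to 1.02 on the log2 scale.

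Among the exporters, Slc30a1 held 44.8, 20.7, 20.2 and 16.8 CPM in the model libraries model_327, model_387, model_407 and model_329, against 16.8, 15.5, 15.2 and 11.7 CPM in normal livers. Model_327 stood apart from its group, and the lowest model liver matched the highest normal one. The difference of 0.79 (SE 0.27, unadjusted p = 0.0106) missed the threshold after adjustment (adjusted p = 0.0788). It was called when model_329 was left out (adjusted p = 0.0292), by DESeq2 (adjusted p = 0.0478), which called 15.5% of all tested genes, and by limma voom (adjusted p = 0.0346). Slc30a10 averaged 61.2 ± 21.4 CPM in model livers and 53.3 ± 16.04 CPM in normal livers (SD, n = 4 each), with an interval of -0.42 to 0.82 on the log2 scale.

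**Figure D2:**
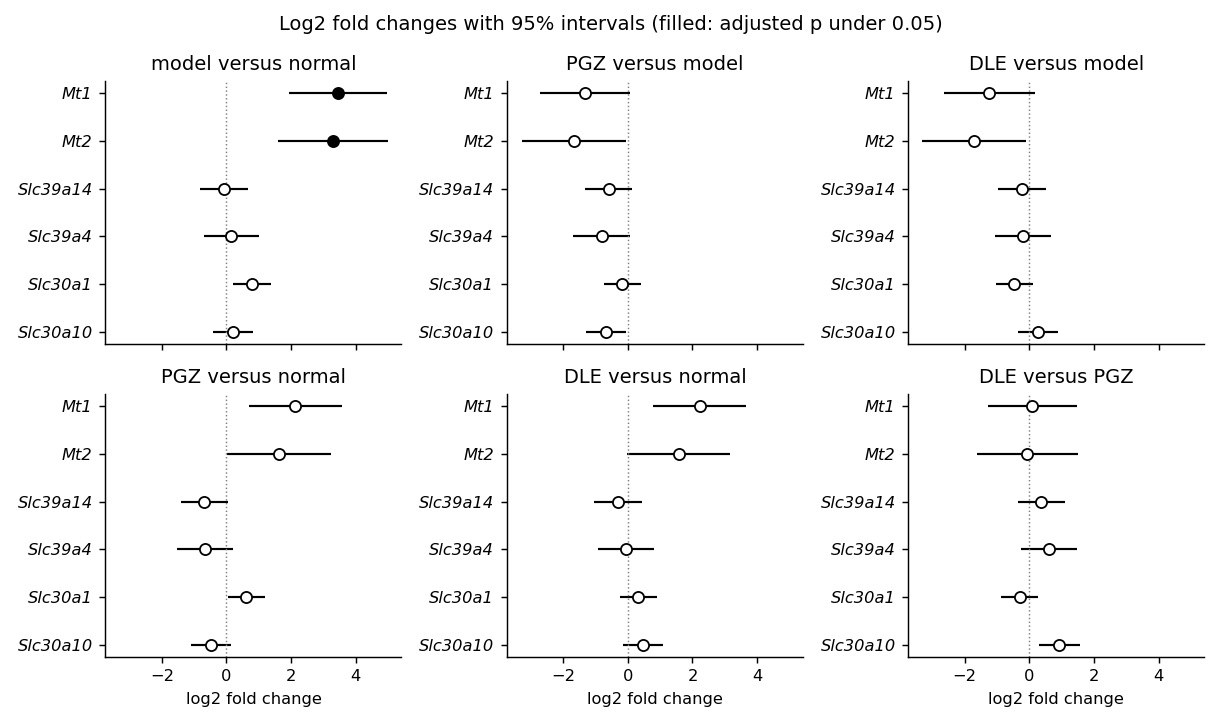
Fitted log2 fold change of each of the 6 genes in 6 comparisons, with 95% intervals from edgeR's quasi-likelihood fit. The intervals of Mt1 and Mt2 in model versus normal, at 3.46 and 3.30, lie farthest from 0, and those of DLE versus PGZ span 0 for every gene but Slc30a10.

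Under both treatments the metallothionein levels were lower on average than in model livers, and neither gene passed the test. The DLE and PGZ contrasts share the same 4 model libraries, so their values are not independent. Mt1 held 3330.4, 816, 729.6 and 418 CPM in the PGZ libraries model_PGZ_328, model_PGZ_360, model_PGZ_408 and model_PGZ_404. One PGZ liver, model_PGZ_328, thus stood as high as model livers and the other 3 lay below all of them. Mt1 in PGZ versus model was -1.33 (SE 0.66, adjusted p = 0.528), and Mt2 was -1.66 (SE 0.76, unadjusted p = 0.0433, adjusted p = 0.495). Mt2 held 1587, 433, 341 and 172 CPM in the same PGZ libraries, again with model_PGZ_328 inside the model range and the other 3 below it. Of the 6 genes none was called by edgeR in PGZ versus model, 2 had an unadjusted p under 0.05, and DESeq2 and limma voom called none of them. Over all tested genes edgeR called 0.0127%, DESeq2 0.807% and limma voom 10.4%.

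With the leaf extract, Mt1 held 2469.9, 1763, 711 and 709 CPM in the DLE libraries model_DLE_361, model_DLE_378, model_DLE_373 and model_DLE_401. The values of model_DLE_361 and model_DLE_378 lay inside the model range. Mt1 in DLE versus model was -1.24 (SE 0.66, adjusted p = 0.399). Mt2 held 954, 724, 459.9 and 289.8 CPM in the same DLE libraries, of which only model_DLE_361 was within the model range, and its difference was -1.72 (SE 0.76, unadjusted p = 0.0373, adjusted p = 0.32). None of the 6 genes was called by edgeR in DLE versus model, 1 had an unadjusted p under 0.05, and DESeq2 and limma voom called none. Over all tested genes edgeR called 0%, DESeq2 2.4% and limma voom 0.0762%.

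The model mean of both genes rests in part on model_327 and model_387. Without these libraries Mt1 was -0.50 in PGZ versus model and -0.41 in DLE versus model, and Mt2 was -0.66 and -0.72. Without these and the treated libraries model_PGZ_328 and model_DLE_361, Mt1 was -1.54 with PGZ and -0.83 with DLE, and Mt2 was -1.69 and -1.04.

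Among the transporters, Slc39a14, Slc39a4 and Slc30a10 had their lowest group mean in PGZ livers. Slc39a4 held 16.2, 12.0, 10.1 and 8.58 CPM in the PGZ libraries model_PGZ_328, model_PGZ_360, model_PGZ_408 and model_PGZ_404, against 24.8, 22.2, 18.9 and 16.6 CPM in model livers. The groups did not overlap, which was so for 4.88% of all tested genes, but the difference of -0.82 (SE 0.41) was not called (unadjusted p = 0.0644, adjusted p = 0.532). Slc30a10 held 48.2, 38.8, 33.9 and 32.3 CPM in PGZ livers, against 90.4, 63.0, 49.8 and 41.5 CPM in model livers. Only the highest PGZ liver reached into the model range, and the difference of -0.68 (SE 0.29, unadjusted p = 0.0349) was not called (adjusted p = 0.482). Slc39a14 held 376.03, 187, 175 and 171 CPM in PGZ livers, where model_PGZ_328 stood far above the rest, and its difference was -0.60 (SE 0.35, adjusted p = 0.585). Slc30a1 held 20.2 to 25.1 CPM in the 4 PGZ livers, inside the model range.

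In DLE livers Slc39a14 spanned 213 to 355 CPM, Slc39a4 9.62 to 28.8 CPM and Slc30a1 14.6 to 26.5 CPM, and each of these ranges overlapped that of model livers. Slc30a10 held 97.5, 81.0, 71.0 and 42.8 CPM in the DLE libraries model_DLE_401, model_DLE_378, model_DLE_361 and model_DLE_373, the highest group mean of the 4 (73.1 ± 22.9, SD). The intervals of the DLE versus model differences were -0.96 to 0.51 for Slc39a14, -1.07 to 0.66 for Slc39a4, -1.05 to 0.11 for Slc30a1 and -0.36 to 0.87 for Slc30a10.

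Set against normal livers, the metallothionein means of both treated groups were higher, and no difference was called. Mt1 was 2.13 higher on the log2 scale in PGZ livers (SE 0.68, unadjusted p = 0.00631, adjusted p = 0.0509), and 2.22 higher in DLE livers (SE 0.68, unadjusted p = 0.00481, adjusted p = 0.0911). In DLE livers all 4 values of Mt1 exceeded all normal ones, which was so, in the higher direction, for 6.03% of all tested genes. In PGZ livers model_PGZ_404, at 418 CPM, lay below the highest normal liver. Mt2 was 1.64 higher in PGZ livers (adjusted p = 0.157) and 1.57 higher in DLE livers (adjusted p = 0.326). Slc30a1 was 0.62 higher in PGZ livers with no overlap (SE 0.27, unadjusted p = 0.0382, adjusted p = 0.141), and 16.5% of all tested genes were separated in that direction.

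In PGZ versus normal none of the 6 genes was called by edgeR, 3 had an unadjusted p under 0.05, and 12.2% of all tested genes were called. DESeq2 called Mt1 there, and limma voom called Mt1, Mt2, Slc39a14 and Slc30a1, while these tools called 19.1% and 40.2% of all tested genes. In DLE versus normal none was called by edgeR, 1 had an unadjusted p under 0.05, and 3.54% of all tested genes were called. DESeq2 called Mt1 there, and limma voom called Mt1 and Mt2, while these tools called 6.8% and 9.6% of all tested genes. With PGZ, Slc39a14 was -0.68 against normal (adjusted p = 0.2), and without the 4 libraries of high acute-phase level (model_327, model_387, model_PGZ_328 and model_DLE_361) it was -1.05 and was called (adjusted p = 0.00251).

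The 2 treatments, which differ in agent and in dose, were also set side by side. Mt1 averaged 1413 ± 862 CPM in DLE livers and 1323 ± 1349 CPM in PGZ livers, and Mt2 averaged 607 ± 292 CPM in DLE livers and 633 ± 645 CPM in PGZ livers (SD, n = 4 each). The intervals of the differences were wide, from -1.29 to 1.47 for Mt1 and from -1.62 to 1.502 for Mt2 on the log2 scale. Slc30a10 was the member that differed most, at 73.1 ± 22.9 CPM in DLE livers and 38.3 ± 7.19 CPM in PGZ livers, a log2 difference of 0.93 (SE 0.29, unadjusted p = 0.0059, adjusted p = 0.456). Only the lowest DLE liver, model_DLE_373 at 42.8 CPM, lay inside the PGZ range. None of the 6 genes was called by edgeR in DLE versus PGZ, 1 had an unadjusted p under 0.05, and DESeq2 and limma voom called none. Over all tested genes edgeR called 0.00635%, DESeq2 0.407% and limma voom 4.21%.

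In order of group means, Mt1 and Mt2 were highest in model livers and lowest in normal livers, with DLE and PGZ between them. Slc30a10 ran from DLE through model and normal to PGZ livers, and Slc39a14 from normal through model and DLE to PGZ livers. Slc39a4 ran from model through normal and DLE to PGZ livers, and Slc30a1 from model through PGZ and DLE to normal livers. No pair of neighbours in any of these orders was called.

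Within the families, a further pair of genes was called against normal livers, both importers. Slc39a5 encodes ZIP5, which in mice sits on the basolateral side of pancreatic and intestinal cells. It averaged 5.33 ± 1.51 CPM in DLE livers, 7.20 ± 2.03 CPM in PGZ livers, 2.13 ± 0.623 CPM in model livers and 0.517 ± 0.308 CPM in normal livers (SD, n = 4 each). Every model value, from 1.37 to 2.89 CPM, exceeded every normal value, from 0.343 to 0.979 CPM. Every treated value, from 3.70 to 9.29 CPM, exceeded every model value. Of all tested genes, 13.7% did not overlap in model versus normal and 4.88% in PGZ versus model, in either direction. For DLE versus model this share is not given here. Against normal livers Slc39a5 rose in model livers by 2.01 (SE 0.40, adjusted p = 0.00746) on the log2 scale. On the same scale it rose in PGZ livers by 3.77 (SE 0.41, adjusted p = 4.97e-05) and in DLE livers by 3.33 (SE 0.41, adjusted p = 0.000194). These 3 calls held with any 1 library left out, and the one in model livers was lost when only model and normal libraries were fitted (adjusted p = 0.0731). Against model livers the difference was 1.76 with PGZ (SE 0.37, unadjusted p = 0.000183, adjusted p = 0.117) and 1.32 with DLE (SE 0.36, unadjusted p = 0.00214, adjusted p = 0.213), and neither was called.

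Slc39a6 encodes ZIP6, a plasma membrane importer. It averaged 1.09 ± 0.437 CPM in DLE livers, 1.90 ± 0.798 CPM in PGZ livers, 2.91 ± 1.73 CPM in model livers and 0.566 ± 0.292 CPM in normal livers (SD, n = 4 each). It rose against normal in model livers by 2.36 (SE 0.53, adjusted p = 0.0149) and in PGZ livers by 1.75 (SE 0.53, adjusted p = 0.0405). The first call was lost without normal_346 or normal_349 (adjusted p up to 0.0505) and without model_327 and model_387 together (log2 1.37, adjusted p = 0.225), and the second in 6 of 8 fits with 1 library left out. Both genes were low, with 5 to 20 reads in the normal libraries for Slc39a5 and 6 to 15 for Slc39a6.

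**Figure D3:**
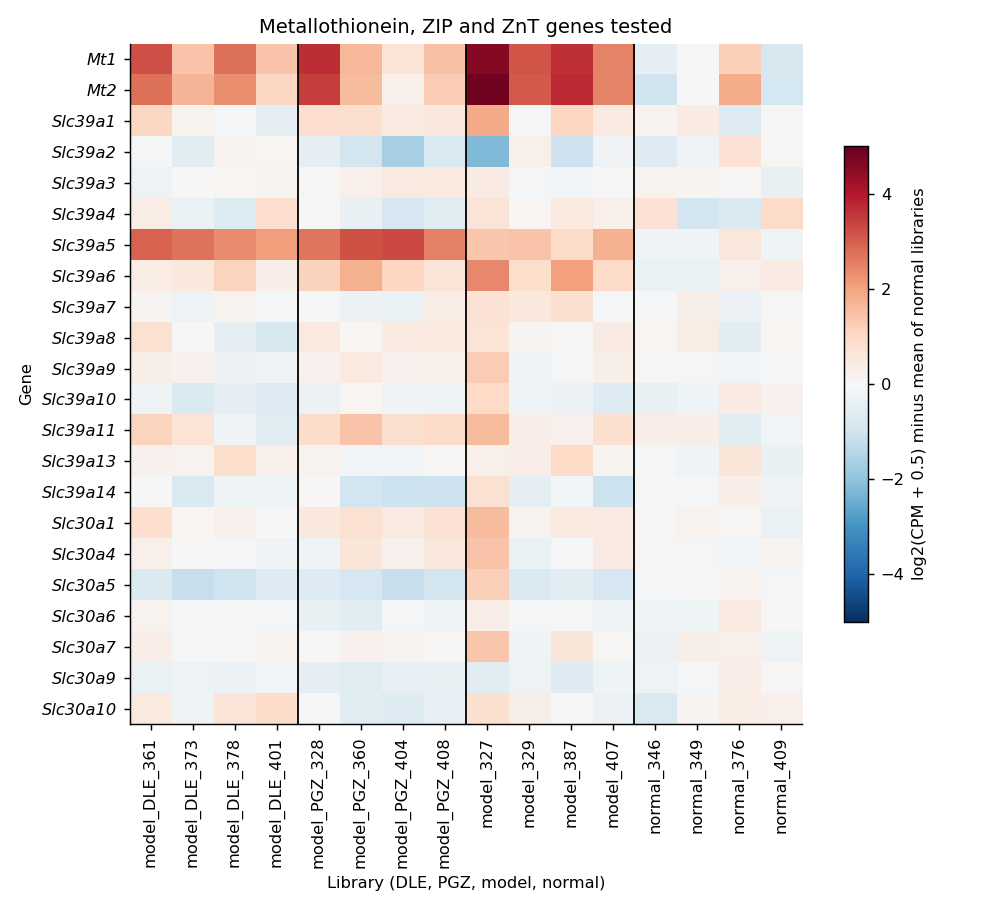
The 22 tested genes of the metallothionein, ZIP and ZnT families in every library, as log2(CPM + 0.5) minus the mean of the normal libraries, with libraries ordered DLE, PGZ, model and normal. Mt1, Mt2 and Slc39a5 are red across db/db livers, with Slc39a5 stronger in DLE and PGZ than in model libraries, while most ZnT genes stay pale outside model_327.

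By count, 2 of 13 tested ZIP genes rose in model versus normal, 2 in PGZ versus normal and 1 in DLE versus normal, and none fell. Of all tested genes 6.18%, 6.15% and 1.84% rose in these 3 comparisons. None of the 7 tested ZnT genes was called by edgeR in any of the 6 comparisons. The median log2 difference of the ZIP list in model versus normal was 0.42 and that of the ZnT list 0.20, against 0.07 over all tested genes. The metallothionein genes Mt3, best known from brain, and Mt4, from stratified epithelia, were too low to be tested, as were Slc30a2, Slc30a3, Slc30a8 and Slc39a12. Mt3 had 6 reads in the DLE group, 0 in PGZ, 8 in model and 0 in normal over 4 libraries each. Slc30a3 had 4 reads in the DLE group, 6 in PGZ, 2 in model and 40 in normal, a difference that was not tested.

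The 9 genes listed as targets or partners of MTF1 include Mt1 and Mt2, whose rise in model versus normal is given above. The other 7 were not called. In this comparison 6.18% of all tested genes rose. Mtf1 itself averaged 25.3 ± 11.6 CPM in model livers and 16.03 ± 2.94 CPM in normal livers (SD, n = 4 each), a difference of 0.66 that was not called (adjusted p = 0.102). Among 12 copper genes, 2 rose and none fell. These were Steap4, a metalloreductase induced in inflammation (log2 5.23, SE 1.29, adjusted p = 0.023), and Slc31a2, a copper transporter of intracellular vesicles (log2 1.47, SE 0.42, adjusted p = 0.0387). Among 10 genes of manganese and iron handling, Fth1, the ferritin heavy chain, rose by 1.32 (SE 0.31, adjusted p = 0.0188) and none fell. Without model_327 and model_387 none of these 3 metal lists kept a called gene, with Steap4 at 0.41, Slc31a2 at 0.32 and Fth1 at 1.11. Without model_PGZ_328 and model_DLE_361 as well, Mt1 was called and the copper and iron genes were not.

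Genes of the other known inducers of metallothionein were counted in the same way for model versus normal. Of 18 acute-phase protein genes 9 rose and none fell, with a median of 2.51, and 6.18% of all tested genes rose. The 3 with the smallest p were Saa3, a serum amyloid A (log2 7.997, SE 1.63), Lcn2, the siderophore-binding lipocalin (log2 8.43, SE 1.76), and Orm3, an orosomucoid (log2 2.52, SE 0.52). Of 12 genes of the IL-6 and STAT3 response, the transcription factor Cebpd (log2 2.62) and the oncostatin M receptor Osmr (log2 1.65) rose. Lifr, the receptor of leukaemia inhibitory factor, fell by 3.02 (adjusted p = 9.8e-05). Of 12 glucocorticoid targets 2 rose, the kinase Sgk1 (log2 1.21, adjusted p = 0.0172) and Lcn2, which is also on the acute-phase list. Of 12 NRF2 targets 4 rose, among them Nqo1 (log2 1.85, adjusted p = 0.00269), Hmox1 (log2 2.99, adjusted p = 0.028) and Gsta1 (log2 3.24, adjusted p = 0.0384), which encode antioxidant and detoxifying enzymes. Without model_327 and model_387, none of the 9 acute-phase genes kept its call, with Saa3 at 1.47, Lcn2 at 4.18 and Orm3 at 1.92. Cebpd at 1.23, Osmr at 0.19, Sgk1 at 1.12 and Hmox1 at 0.50 were not called either, while Lifr, Nqo1 and Gsta1 were. Without model_PGZ_328 and model_DLE_361 as well, Saa2, Lcn2, Orm2 and Orm3 kept their calls, as did Sgk1 (log2 1.13, adjusted p = 0.00653).

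In the 4 groups the acute-phase sum moved with metallothionein in part. The 18 genes summed to 11196 to 73042 CPM in DLE livers, 12113 to 60760 CPM in PGZ livers, 12107 to 255030 CPM in model livers and 12985 to 17876 CPM in normal livers, and each of the 18 had reads in every group. The highest metallothionein value of each db/db group was in the library with the highest acute-phase sum of that group, namely model_DLE_361, model_PGZ_328 and model_327. Model_329 went another way, with 3501 CPM of Mt1 and Mt2 together at an acute-phase sum of 12107 CPM, below every normal liver. The normal livers held 228 to 1126 CPM of the 2 metallothioneins. The highest of these values was in normal_376, which had the lowest acute-phase sum of its group, 12985 CPM. The part of the acute phase in the metallothionein difference was not tested.

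**Figure D4:**
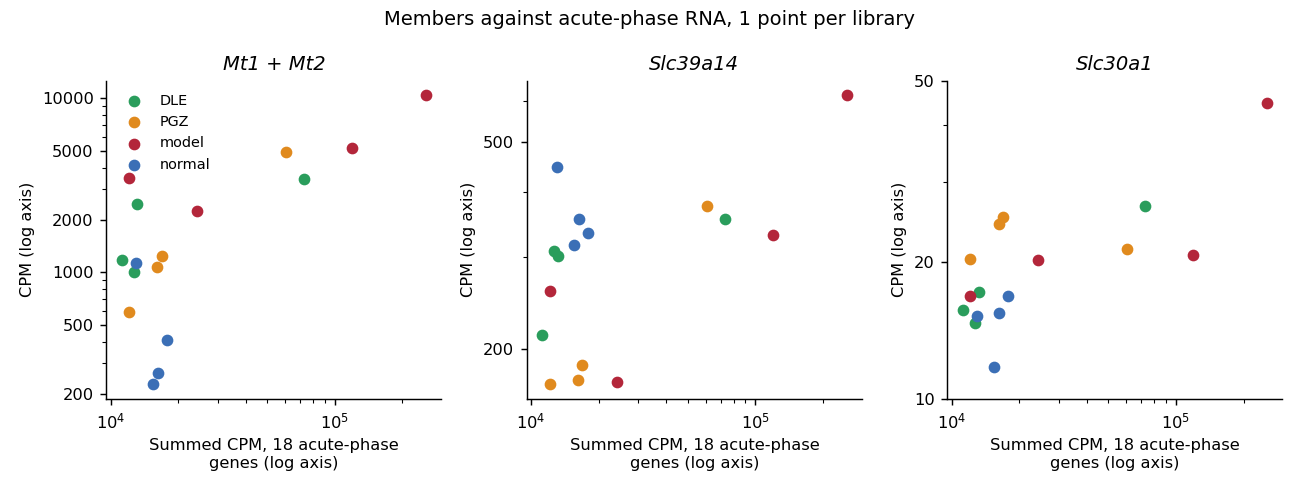
Summed CPM of Mt1 and Mt2 (left) and CPM of Slc39a14 (middle) and Slc30a1 (right) against acute-phase RNA, all on log axes. The horizontal axis is the summed CPM of 18 acute-phase protein genes, with 1 point per library and 1 colour per group. In the left panel model_327 lies at the top right with 10394 CPM. Model_329 stands there at 3501 CPM with an acute-phase sum of 12107 CPM. It lies left of all normal libraries, which hold at most 1126 CPM of metallothionein.

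Markers of some cell types moved with the same comparison, in which 6.18% of all tested genes rose and 2.9% fell. None of the 6 endothelial, 6 stellate, 5 cholangiocyte and 6 erythroid markers was called. The 1 tested marker of exocrine pancreas fell, and the 1 tested marker of intestine was not called. Of 6 Kupffer cell markers, 5 rose in model versus normal, with sums of 86.4 to 1182 CPM in model livers and 51.0 to 176 CPM in normal livers. Of 6 markers of recruited macrophages 5 rose, with 22.0 to 223 CPM in model livers and 12.6 to 16.8 CPM in normal livers. Of 7 neutrophil markers 6 were tested and 3 rose, with sums of 2.04 to 1848 CPM in model livers and 0.950 to 1.17 CPM in normal livers, where Ngp was at 0. Without model_327 and model_387, 2 of the 5 Kupffer calls, 1 of the 5 macrophage calls and 0 of the 3 neutrophil calls were kept. Of 5 hepatocyte markers 1 fell, and their sums ran from 28620 to 45197 CPM in model livers and from 36085 to 92043 CPM in normal livers. The part of these cells in the metallothionein levels was not tested.

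Across the 16 libraries the 2 metallothioneins followed each other closely (Pearson r = 0.98 of log2(CPM + 0.5), a description over libraries that share depth and group). Slc30a1 came next, with r = 0.68 to Mt1 and 0.66 to Mt2, and Slc39a14 and Slc30a10 stood at 0.62 to each other. Slc39a4 stood at 0.13 to Mt1. The 3 genes outside the 6 most like Mt1, among 13594 genes, were the orosomucoids Orm2 (r = 0.94) and Orm3 (r = 0.92) and Gas6 (r = 0.90), a ligand of the TAM receptors. Orm2 averaged 858 CPM in DLE, 643 CPM in PGZ, 2780 CPM in model and 51.5 CPM in normal livers. Most like Mt2 were Orm2 (r = 0.90), the aryl hydrocarbon receptor gene Ahr (r = 0.88) and Orm3 (r = 0.88).

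The transporters had other companions. Slc39a14 was most like Il1r1, the interleukin 1 receptor gene (r = 0.92), then Farp1 (r = 0.90) and Foxk2 (r = 0.89). Il1r1 averaged 122 CPM in DLE, 80.9 CPM in PGZ, 267 CPM in model and 221 CPM in normal livers, with PGZ lowest as for Slc39a14. Slc30a1 was most like Rab28 (r = 0.94), Mrps12 (r = 0.94) and Gosr2 (r = 0.94), and Slc39a4 like Mrm3 (r = 0.80), Cebpz (r = 0.79) and Mars (r = 0.76). Slc30a10 was most like Gm43860 (r = 0.92), Zfp574 (r = 0.89) and Gm2061 (r = 0.86). Gm2061 overlaps Slc30a10 on the opposite strand, and because the sources used here do not give the strand setting of the counting, reads of the 2 cannot be told apart. The same holds for Mt2 and its antisense neighbour Gm45774, which was not analysed here, and for Slc30a1 and 1700034H15Rik.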

How the data were processed

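Per the labels, total liver RNA was extracted and sequenced by Illumina protocols. The authors deposited 1 table of raw read counts by Ensembl gene with 1 column per library, of which 4, for white tea extract, hold no value. The submitters' processing notes list HISAT2 2.1.0, StringTie 1.3.3b and DESeq2 1.28.0 as tools beside CASAVA 1.8.2 and FastQC 0.11.5, with GRCm38 as build. Strand setting and handling of multiply matching reads are not given in the sources used here. Mt1 and Mt2 transcripts share no run longer than 20 bases. Symbols, coordinates and exon lengths came from GENCODE M21 (GRCm38), which matched 45143 of 46078 identifiers (98%), and the other identifiers held 0.0641% of reads. Promoter windows came from RefSeq on GRCm38.p6.

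Counts were fitted in R 4.3.3 with edgeR 4.0.16 (filterByExpr, TMM, glmQLFit with robust dispersions, glmQLFTest, two-sided) over 16 libraries and 4 groups at once, with Benjamini-Hochberg adjustment over 15744 genes. CPM are reads per 1e6 of the TMM-scaled total, and plots and correlations use log2(CPM + 0.5). Alternatives were RLE and upper-quartile scaling, no filter, a stricter one (200 reads in all and 4 libraries of 1 CPM or more), only the groups compared, DESeq2 1.42.0, limma 3.58.1 voom with quality weights, and each library left out. Leaving out model_327 and model_387, alone or with model_PGZ_328 and model_DLE_361, was added after the data were seen. The fit was tested on simulated data that held no shift shared by many genes of a single library. That test therefore says nothing of the effect of model_327 or model_387 on the calls. Figures used Python 3.11.15.

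The 6 genes and the 21 gene lists were chosen with earlier results of these data known. Named beside the 6 were all called genes of the 3 families, up to 3 called genes of each other list with the smallest p, and the 3 genes most like each member. No list was tested as a set. Totals ranged from 18300173 to 24105179 reads in DLE, from 19332589 to 22415530 in PGZ, from 17993327 to 25119799 in model and from 16922833 to 21622959 in normal libraries. No 2 libraries of a group agreed within sampling noise (chi-square per degree of freedom at least 27.1).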

Additional observations from a re-analysis of the deposited data

Results flagged for a closer look

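Among 24 combinations of gene and group, 4 held a library far from the other 3 of its group by Dixon's test on CPM. Chance alone flags about 1 group in 20 only where values are independent and normally distributed. The CPM need not be so, and the same libraries recur across genes, so the 4 flags cannot be weighed against that rate. Mt1 stood at 3330.4 CPM in the library model_PGZ_328, against 418 to 816 CPM in the other PGZ livers. Slc39a14 stood at 376.03 CPM in the same library, against 171 to 187 CPM in the others. This library also had the highest acute-phase sum of the PGZ group, at 60760 CPM, and the part of that in the 2 values was not tested.

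Slc30a1 stood at 44.8 CPM in model_327, against 16.8 to 20.7 CPM in the other model livers. Most tested ZIP and ZnT genes outside the 6 were also highest there among model livers. Slc30a5 held 125 CPM against 29.8 to 36.5, and Slc39a9 held 66.4 CPM against 23.8 to 33.5. For Slc39a2, Slc39a5, Slc39a7, Slc39a13 and Slc30a9 another model liver was highest. Model_327 also had the highest acute-phase sum of all libraries, at 255030 CPM. Mt2 stood at 523 CPM in normal_376, against 70.7 to 144 CPM in the other normal livers. The acute-phase sum of normal_376 was 12985 CPM, the lowest of its group.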

How the results depend on the processing

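In model versus normal 2 of the 6 genes were called, 1 (Mt1) when only the groups compared were fitted, 3 with DESeq2 (Slc30a1 added), 4 with limma voom (Slc39a14 and Slc30a1 added), 0 without model_327 and model_387, 1 (Mt1) without these and the libraries model_PGZ_328 and model_DLE_361, and 1 to 3 with 1 library left out. In PGZ versus normal 0 were called, against 1 (Mt1) with upper-quartile scaling, the stricter filter or DESeq2, 2 (Mt1 and Slc30a1) when only the groups compared were fitted and when the 2 model libraries were left out, 4 with limma voom, 2 (Slc39a14 and Slc30a1) when the 4 libraries were left out, and 0 to 2 with 1 library left out. In DLE versus normal 0 were called, against 1 (Mt1) when only the groups compared were fitted, with DESeq2 and without the 4 libraries, and 2 with limma voom. The other 3 comparisons gave 0 in every fit. Causes were not tested.

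None of the log2 differences that changed sign was called. With upper-quartile scaling Slc39a4 in DLE versus normal was 0.0036, and this scaling moved the median of all genes in PGZ versus normal to 0.12, against 0.03. With limma voom Slc30a10 was -0.062 in model versus normal, Slc30a1 0.17 in PGZ versus model, Slc39a14 0.55 in DLE versus model and Mt2 0.59 in DLE versus PGZ. Without the 2 model libraries, Slc39a4 was -0.058 and Slc30a10 -0.031 in model versus normal, Slc39a14 0.076 and Slc30a1 0.30 in PGZ versus model, and Slc39a14 0.45 and Slc39a4 0.0097 in DLE versus model. Without the 4 libraries, Slc39a4 was -0.061 and Slc30a10 -0.024 in model versus normal, Slc30a1 0.30 in PGZ versus model, Slc39a14 0.34 in DLE versus model and Mt2 0.65 in DLE versus PGZ. With 1 library left out the ranges that crossed 0 were -0.32 to 1.11 for Mt1 and -0.37 to 0.94 for Mt2 in DLE versus PGZ. In model versus normal they were -0.52 to 0.15 for Slc39a14, -0.10 to 0.52 for Slc39a4 and -0.053 to 0.35 for Slc30a10. They were -0.33 to 0.24 for Slc30a1 in PGZ versus model, -0.44 to 0.21 for Slc39a14 and -0.54 to 0.0016 for Slc39a4 in DLE versus model, and -0.38 to 0.32 for Slc39a4 in DLE versus normal.

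Over all genes the calls in model versus normal were 1429, against 2439 with DESeq2, 4325 with limma voom, 952 with no filter, 226 with only the groups compared, 438 without the 2 and 726 without the 4 libraries. In PGZ versus model they were 2, against 127, 1637, 2, 1, 4 and 216 in the same settings, and in DLE versus model 0, against 2.4% of tested genes with DESeq2 and 12, 0, 0, 1 and 2 genes in the others. In PGZ versus normal they were 1926, against 3004, 6333, 1425, 4363, 3760 and 4677, in DLE versus normal 557, against 1071, 1512, 428, 675, 1126 and 1449, and in DLE versus PGZ 1, against 64, 663, 1, 12, 27 and 497.

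No paired analysis was possible because no library number is shared between groups. With 4 livers a group the intervals are wide, and Slc39a5 and Slc39a6 rest on few reads in normal livers.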

Other observations

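Among glucocorticoid targets, 3 of 12 rose in DLE versus normal, namely Tsc22d3 (log2 1.33, SE 0.26, adjusted p = 0.00745), Fkbp5 (log2 1.32, SE 0.29, adjusted p = 0.0177) and Sgk1 (log2 1.16, SE 0.28, adjusted p = 0.0302). Tsc22d3 encodes the leucine zipper protein GILZ and Fkbp5 a chaperone of the glucocorticoid receptor. In PGZ versus normal 2 of the 12 glucocorticoid targets rose, Sgk1 and Lcn2, while Tsc22d3 and Fkbp5 were not called. Of 18 acute-phase protein genes 3 rose there, Orm3, Lcn2 and Orm2, so Lcn2 counts in both lists. Of the NRF2 targets 3 of 12 rose in PGZ versus normal and 2 of 12 in DLE versus normal, with Nqo1 at 2.67 (adjusted p = 0.000106) in PGZ livers and 2.44 (adjusted p = 0.000312) in DLE livers. Of all tested genes 6.15% rose in PGZ versus normal and 1.84% in DLE versus normal, and both groups were compared with the same normal libraries.

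The ratio of Mt1 to Mt2 reads averaged 2.25 ± 0.477 in DLE livers, 2.14 ± 0.221 in PGZ livers, 1.75 ± 0.160 in model livers and 1.91 ± 0.645 in normal livers (SD, n = 4 each). It ran from 1.15 to 2.73 in normal livers, which enclosed the range of every db/db group. Normal_376, which had the highest metallothionein level of its group, had the lowest ratio.

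Slc30a1 overlaps 1700034H15Rik on the opposite strand, which had 8 to 80 reads in DLE, 16 to 29 in PGZ, 23 to 68 in model and 2 to 19 in normal libraries. Slc30a1 itself had 338 to 543, 443 to 622, 313 to 921 and 171 to 313 reads in the same groups.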
